A study of Mus musculus with 4 samples.

Results

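The genes described here are 10 non-matrix genes of the arachnoid and of meningeal fibroblasts, the cells that form the coverings of the brain. They are the growth factor gene Igf2 and its binding protein gene Igfbp2, the transporter genes Slc22a6, Slc22a8, Slc13a4 and Slc47a1, the prostaglandin D synthase gene Ptgds, the retinoid genes Aldh1a2 and Crabp2, and the cytochrome gene Cyp1b1. Members were the non-control probes whose transcript accession maps to these symbols: 11 probes for 10 genes, among 39429 probes and 20832 named genes on the array. Every one of the 11 probes lay well above background on the 4 arrays in both channels, so every member was tested. The study set cerebral cortex RNA of Ndrg2-/- males against that of wild type males, all aged 3 months and on a C57BL/6N background. Each of 4 Agilent arrays held 1 Ndrg2-/- sample dyed with Cy5 and 1 wild type sample dyed with Cy3, and the arrays carry the replicate numbers 1 to 4. No array had the dyes exchanged, so genotype and dye cannot be told apart. Neither the removed part of Ndrg2, nor the number of mice behind a sample, nor the handling of the meninges at dissection is given in the labels. The p-values therefore measure only the spread between these samples, which may be technical.

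The meninges enclose the brain in layers of fibroblasts, and the arachnoid layer forms a barrier between the blood vessels of the dura and the cerebrospinal fluid. Cells of this barrier carry transporters for organic anions and other solutes, and meningeal fibroblasts are a main source of retinoic acid for the underlying cortex. Retinoic acid is made from retinaldehyde by the ALDH1A enzymes, carried to the nucleus by CRABP2 and broken down by the CYP26 enzymes. Several of the genes are not restricted to the meninges: the choroid plexus epithelium also expresses Igf2, Slc22a8 and Slc13a4, oligodendrocytes express Ptgds and astrocytes express Igfbp2. In tissue RNA, fewer cells of a type and less RNA per cell cannot be told apart.

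A ratio is the log2 of Ndrg2-/- over wild type within an array, given with its SD over 4 arrays, and a level is the normalised log2 intensity of 1 channel. A gene was called when limma's adjusted p over all tested probes was under 0.05. The median spot signal was 283 to 335.5 in red (Ndrg2-/-) over a local background of 87 to 96, and 94 to 122 in green (wild type) over 22 to 26. Precision is limited by having 4 arrays. The Ndrg2 probe did not check the labels, as its ratios were 0.11, 0.37, 0.40 and 0.38 on arrays 1 to 4, with a mean of 0.32 ± 0.14 (adjusted p 0.0173), higher in the samples labelled Ndrg2-/-. The probe may lie outside the deleted part, and every direction given here rests on the labels. All 14 neuronal markers looked up passed the filter on dim probes, and so did 19 of 20 matrix markers and 33 of 35 other markers of meningeal fibroblasts.

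Of the 10 genes, 6 rose in Ndrg2-/- cortex: Igf2, Slc22a6, Ptgds, Aldh1a2, Crabp2 and Cyp1b1. Their mean ratios lay between 0.36 and 0.48, which is 1.29-fold to 1.39-fold. Igfbp2, Slc13a4, Slc47a1 and Slc22a8 did not pass, and Slc22a8 was the only one with a mean below 0. Over all 15757 genes tested, 9.12% were called higher and 5.84% lower, against 6 and 0 of the 10. The median ratio of the 10 genes was 0.37, and that of all genes was 0.01. The same 6 genes had a ratio above 0 on every array, as did 24.1% of all genes. None of the 10 passed 1.5 fold, the size named in the series' design text, on all 4 arrays or by its mean, which 0.0952% and 0.273% of all genes did.

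**Figure D1:**
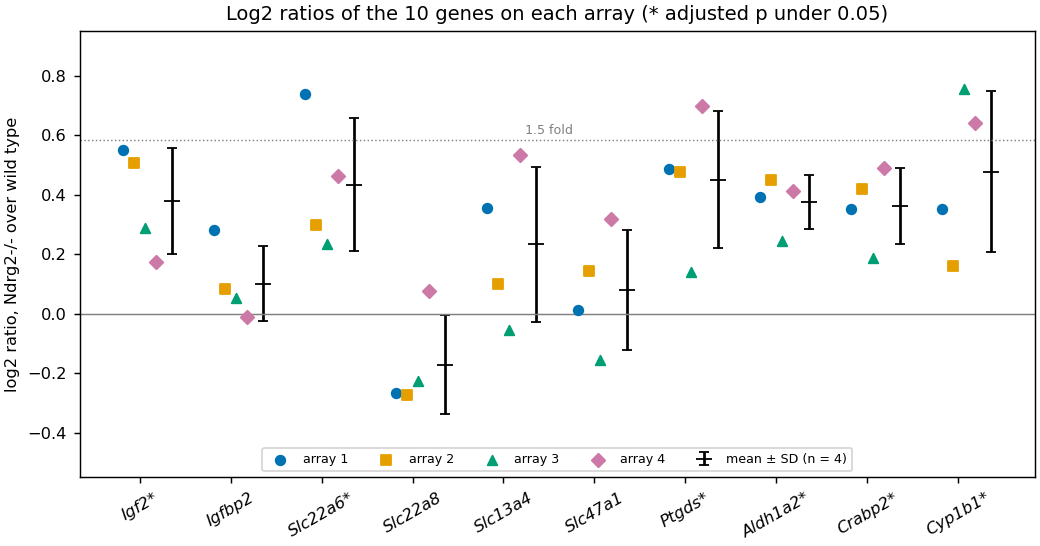
Log2 ratio (Ndrg2-/- over wild type) of each of the 10 genes on arrays 1 to 4, with the mean and SD in black and an asterisk where limma's adjusted p was under 0.05. The 6 called genes lie above 0 on every array, and 3 of the 4 ratios of Slc22a8 lie below it.

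The levels themselves varied widely between arrays, and the samples of both genotypes that shared an array varied together. The wild type level of Slc13a4 ranged over 1.31 on the log2 scale, that of Slc22a6 over 1.12 and that of Aldh1a2 over 1.04, while the median range over all genes was 0.19. Only 0.0888%, 0.184% and 0.273% of genes had a wider range than these in the wild type samples. For 8 of the 10 genes the range of the wild type levels was larger than the mean ratio, the exceptions being Cyp1b1 (0.23) and Ptgds (0.39). Between genotypes, the levels of all samples separated without overlap for Ptgds and Cyp1b1 only, 2 of 10 genes, against 9.06% of all genes higher and 6.25% lower in this way. With the channels compared without the pairing within arrays, 1 of the 6 called genes passed, Ptgds.

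**Figure D2:**
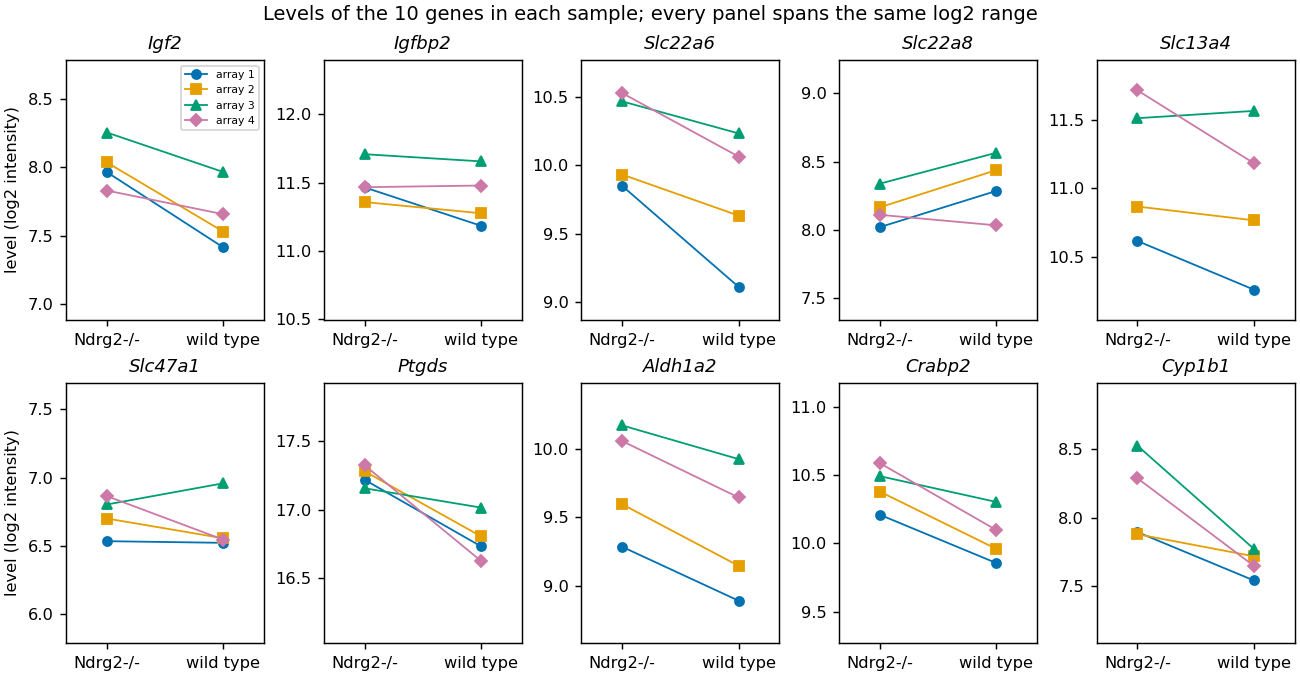
Level (normalised log2 intensity) of each gene in the Ndrg2-/- sample (left) and the wild type sample (right) of each array, joined by a line, with every panel spanning the same log2 range. Slc22a6, Slc13a4 and Aldh1a2 were higher on arrays 3 and 4 than on arrays 1 and 2 in both genotypes, and the lines of Ptgds and Cyp1b1 start above all their ends.

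Igf2 encodes insulin-like growth factor 2, a secreted ligand of the IGF1 receptor that is imprinted in most tissues. Its level was 7.97, 8.04, 8.26 and 7.83 in the Ndrg2-/- samples of arrays 1 to 4, against 7.41, 7.53, 7.97 and 7.66 in the wild type samples. The Ndrg2-/- sample was the higher on every array, but the groups overlapped, because the wild type sample of array 3 was at the level of the Ndrg2-/- sample of array 1 and above that of array 4. The ratios were 0.55, 0.51, 0.29 and 0.17, larger on arrays 1 and 2, with a mean of 0.38 ± 0.18 (adjusted p 0.0170). The call was lost without array 1 (adjusted p 0.0568), without array 2 (0.0785), with the scanner software's processed signals (0.0517) and without the pairing within arrays (0.107).

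Igfbp2 encodes a secreted binding protein that holds IGF2 and IGF1 in the extracellular space, and it was the only member with more than 1 probe. Its brighter probe had levels of 11.46, 11.36, 11.71 and 11.47 in Ndrg2-/- samples, against 11.18, 11.28, 11.65 and 11.48 in wild type samples. The groups overlapped in part, and the difference was largest on array 1. The ratios were 0.28, 0.08, 0.05 and -0.01 (mean 0.10 ± 0.13, adjusted p 0.245), with a 95% interval of -0.03 to 0.23. The other probe gave 0.27, 0.09, -0.03 and 0.04, with a mean of 0.09 ± 0.13 (adjusted p 0.281), so the 2 probes ran alike. Within arrays, the ratio of Igf2 exceeded that of Igfbp2 by 0.27, 0.42, 0.24 and 0.19 (exact two-sided sign-flip p 0.125, the smallest that 4 arrays allow, or 0.250 adjusted over the 4 pairs of members compared).

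The start region of Igf2 is shown because it alone among the members' start regions held the letters of a retinoic acid receptor half-site. Igf2 also had more windows than any other member, 4, and 1 of them held these letters. RefSeq promoter windows of GRCm38.p6, which run from 250 bases before to 50 after a start site, were found for 8 of the 10 genes, 12 windows in all, and not for Crabp2 or Slc47a1. They were searched on both strands for AGGTCA and AGTTCA, each a half-site and not a full site of retinoic acid receptors. GCGTG, the core bound by the aryl hydrocarbon receptor, was searched for in the same way. No matches overlapped. Of 32851 windows of 300 bases, 16.3% held AGGTCA, 14.0% AGTTCA and 32.4% GCGTG, and a match is a description of letters only. The window at the farthest upstream Igf2 start (chr7:142666767-142667066, minus strand) held AGGTCA on the other strand at position -234, and AGTTCA at -175 on the other strand and at 33. Capitals mark these matches, and TGACCT and TGAACT are the reverse complements.
Igf2: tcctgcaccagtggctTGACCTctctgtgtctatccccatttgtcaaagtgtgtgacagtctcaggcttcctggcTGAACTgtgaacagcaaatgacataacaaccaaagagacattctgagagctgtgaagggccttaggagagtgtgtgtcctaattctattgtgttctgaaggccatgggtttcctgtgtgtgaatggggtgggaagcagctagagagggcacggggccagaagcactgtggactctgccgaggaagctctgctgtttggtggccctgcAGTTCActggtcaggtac

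Slc22a6 encodes OAT1, an organic anion exchanger known from the kidney and also present in the meninges. Its level was 9.85, 9.93, 10.47 and 10.53 in Ndrg2-/- samples, against 9.11, 9.63, 10.23 and 10.06 in wild type samples. Arrays 3 and 4 were the higher in both genotypes, the groups overlapped, and the Ndrg2-/- sample was the higher on every array. The ratios were 0.74, 0.30, 0.23 and 0.46, with a mean of 0.43 ± 0.22 (adjusted p 0.0184). The call was lost without array 2 (adjusted p 0.0608), with the processed signals (0.0533) and without the pairing (0.330).

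Slc22a8 encodes the related organic anion exchanger OAT3, which carries anions out of the cerebrospinal fluid across the choroid plexus and the arachnoid. The level was 8.02, 8.17, 8.34 and 8.11 in Ndrg2-/- samples, against 8.29, 8.44, 8.56 and 8.03 in wild type samples. The Ndrg2-/- sample was the lower on arrays 1 to 3 and the higher on array 4. The ratios were -0.26, -0.27, -0.23 and 0.08, with a mean of -0.17 ± 0.17 (adjusted p 0.117). Without array 4 the mean was -0.25 and passed (adjusted p 0.0271).

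Slc22a6 and Slc22a8 are near neighbours, with 1 gene between them in the reference gene table, Gm36394. Within arrays the ratio of Slc22a6 exceeded that of Slc22a8 by 1.0, 0.57, 0.46 and 0.39 on arrays 1 to 4 (mean 0.61 ± 0.28, exact two-sided sign-flip p 0.125, adjusted 0.250). These pairs were picked after their values were seen. The start regions of the neighbours are shown because their mean ratios differed in sign, and neither held any of the 3 motifs. The Slc22a6 window is chr19:8617746-8618045 and the Slc22a8 window is chr19:8592932-8593231, both on the plus strand of GRCm38.p6.
Slc22a6: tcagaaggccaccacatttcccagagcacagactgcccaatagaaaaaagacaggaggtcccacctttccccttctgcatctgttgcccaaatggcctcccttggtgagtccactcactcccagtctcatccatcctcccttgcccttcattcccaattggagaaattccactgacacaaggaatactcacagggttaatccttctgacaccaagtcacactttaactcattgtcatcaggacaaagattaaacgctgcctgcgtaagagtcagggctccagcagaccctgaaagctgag
Slc22a8: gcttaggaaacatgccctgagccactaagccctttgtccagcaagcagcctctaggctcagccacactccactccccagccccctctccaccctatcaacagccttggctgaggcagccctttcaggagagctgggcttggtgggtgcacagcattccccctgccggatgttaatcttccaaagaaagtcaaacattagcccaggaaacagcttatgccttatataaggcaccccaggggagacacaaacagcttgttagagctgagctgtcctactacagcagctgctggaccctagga

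Slc13a4 encodes a sodium-coupled sulfate transporter of the meninges and the choroid plexus. Its level was 10.62, 10.87, 11.51 and 11.72 in Ndrg2-/- samples, against 10.26, 10.77, 11.57 and 11.18 in wild type samples. The differences between arrays were far larger than those between genotypes, and array 3 ran the other way. The ratios were 0.36, 0.10, -0.05 and 0.53, with a mean of 0.23 ± 0.26 and a 95% interval of 0.02 to 0.45 before adjustment (adjusted p 0.125). The mean was 0.13 without array 4. Relative to Slc22a6 its ratio was lower on arrays 1 to 3 and higher on array 4 (mean difference -0.20 ± 0.19, exact sign-flip p 0.250, adjusted 0.333).

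Slc47a1 encodes MATE1, a proton-coupled exporter of organic cations. It was the dimmest member, and 93.6% of tested genes were brighter. Its level was 6.53, 6.70, 6.80 and 6.86 in Ndrg2-/- samples, against 6.52, 6.56, 6.96 and 6.55 in wild type samples. The ratios of 0.01, 0.14, -0.16 and 0.32 had no common direction (mean 0.08 ± 0.20, adjusted p 0.494). The 95% interval was -0.09 to 0.25, and the mean was 0.00 without array 4.

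Ptgds encodes the lipocalin-type prostaglandin D synthase, which makes prostaglandin D2 and is also secreted into the cerebrospinal fluid as beta-trace protein. Its level was 17.22, 17.28, 17.16 and 17.32 in Ndrg2-/- samples, against 16.73, 16.81, 17.02 and 16.63 in wild type samples. Every Ndrg2-/- sample was above every wild type sample. The ratios were 0.49, 0.48, 0.14 and 0.70, with a mean of 0.45 ± 0.23 (adjusted p 0.0176). Ptgds was among the brightest genes, with only 0.228% brighter, and of the brightest 1%, 158 genes, 83 were called higher and 4 lower, with a median ratio of 0.18. With a narrower loess span of 0.1 the median of these 158 genes fell to 0.08 and the Ptgds ratio to 0.31, still called. The call was lost without array 1 (adjusted p 0.0621), without array 2 (0.0787) and with the processed signals (0.31, adjusted p 0.0863).

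Both retinoid members rose, by nearly the same amount. Aldh1a2 encodes the dehydrogenase that makes retinoic acid in meningeal fibroblasts. Its level was 9.29, 9.60, 10.17 and 10.06 in Ndrg2-/- samples, against 8.89, 9.15, 9.93 and 9.65 in wild type samples. Arrays 3 and 4 were the higher in both genotypes, so the groups overlapped, and the Ndrg2-/- sample was the higher on every array. The ratios were 0.39, 0.45, 0.25 and 0.41, with a mean of 0.38 ± 0.09 (adjusted p 0.00496). Aldh1a2 passed with each array left out in turn (adjusted p 0.0115 to 0.0387) and with the processed signals (0.42), but not without the pairing (adjusted p 0.414).

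Crabp2 encodes the binding protein that delivers retinoic acid to its nuclear receptors. Its level was 10.21, 10.38, 10.49 and 10.59 in Ndrg2-/- samples, against 9.86, 9.96, 10.30 and 10.10 in wild type samples. The only overlap was between the Ndrg2-/- sample of array 1 and the wild type sample of array 3. The ratios were 0.35, 0.42, 0.19 and 0.49, with a mean of 0.36 ± 0.13 (adjusted p 0.0104). The call was lost without array 2 (adjusted p 0.0603) and without the pairing (0.0822). The ratios of Aldh1a2 and Crabp2 differed by 0.04, 0.03, 0.06 and -0.08 on arrays 1 to 4, a mean of 0.01 ± 0.06 (exact two-sided sign-flip p 0.750, also 0.750 adjusted).

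Cyp1b1 encodes a cytochrome P450 that oxidises oestrogens, retinol and polycyclic hydrocarbons and is induced through the aryl hydrocarbon receptor. Its level was 7.89, 7.88, 8.53 and 8.29 in Ndrg2-/- samples, against 7.54, 7.72, 7.77 and 7.65 in wild type samples. The groups did not overlap, and the Ndrg2-/- samples of arrays 3 and 4 stood highest. The ratios were 0.35, 0.16, 0.75 and 0.64, with a mean of 0.48 ± 0.27 (adjusted p 0.0207). It was the only one of the 10 genes with its largest ratio on array 3. The call was lost without array 1 (adjusted p 0.0549), array 3 (0.0623) or array 4 (0.0591), and without the pairing (0.0720).

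The start regions of Cyp1b1 and Aldh1a2 are shown as the called genes whose windows held GCGTG, in capitals, which also occurred in both windows of Igfbp2. In Cyp1b1 (chr17:79715012-79715311, minus strand of GRCm38.p6) the match lay at -76 and reads CACGC, its reverse complement. In Aldh1a2 (chr9:71215539-71215838, plus strand) it lay at -128. Of the 8 genes with a window, 3 held it.
Cyp1b1: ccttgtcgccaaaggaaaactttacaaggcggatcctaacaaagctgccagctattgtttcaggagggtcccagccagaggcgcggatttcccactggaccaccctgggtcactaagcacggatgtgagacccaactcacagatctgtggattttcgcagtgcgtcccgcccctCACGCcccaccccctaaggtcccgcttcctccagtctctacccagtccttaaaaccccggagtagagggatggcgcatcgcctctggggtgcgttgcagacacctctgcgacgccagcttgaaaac
Aldh1a2: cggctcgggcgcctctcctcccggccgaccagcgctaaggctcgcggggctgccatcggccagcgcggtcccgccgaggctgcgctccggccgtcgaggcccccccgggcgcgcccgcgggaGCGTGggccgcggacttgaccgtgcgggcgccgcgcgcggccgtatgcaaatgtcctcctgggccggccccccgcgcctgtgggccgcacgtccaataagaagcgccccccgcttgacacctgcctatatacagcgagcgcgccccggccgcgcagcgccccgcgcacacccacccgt

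Arrays differed in how far the genes departed from 0. The median ratio of the 10 genes was 0.35, 0.23, 0.16 and 0.44 on arrays 1 to 4, while the median of all genes was 0.01 or 0.02 on each. Array 3 gave the lowest ratio of 6 genes and array 4 the highest of 5. Ratios past 1.5 fold on a single array were those of Slc22a6 on array 1, Cyp1b1 on arrays 3 and 4 and Ptgds on array 4.

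By the root mean square distance over the 4 arrays, the genes nearest to the median profile of the members were Trim56, Phactr4, Gpx8, Emp3 and Foxf2, among 15747 others. Their distances lay between 0.03 and 0.04 on the log2 scale, and their mean ratios were 0.30, 0.29, 0.31, 0.29 and 0.26. Trim56 encodes a ubiquitin ligase, Phactr4 a regulator of protein phosphatase 1, Gpx8 a peroxidase of the endoplasmic reticulum and Emp3 a membrane protein. Foxf2 encodes a forkhead factor of pericytes. They were chosen for this likeness, which is a description.

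Other genes of the same pathways were looked up from lists. Their counts stand beside the 9.12% called higher and 5.84% called lower over all genes tested. Of 27 further retinoid genes tested, 5 rose and 1 fell, with a median ratio of 0.11. The dehydrogenase gene Aldh1a1 was at 0.30 ± 0.11 (0.26, 0.42, 0.18 and 0.36 on arrays 1 to 4, adjusted p 0.0135), and Stra6, which encodes a retinol uptake receptor, at 0.29 ± 0.15 (adjusted p 0.0238). Dhrs3, which encodes a retinaldehyde reductase, and Rai1 also rose, and both were named after their values were seen. Rbp4, which encodes the circulating retinol carrier, fell by 0.25 on the log2 scale (SD 0.08, adjusted p 0.0168), and its ratio was 0.15 under median centring in place of loess, where the median of all genes was 0.28. The largest mean was that of Cyp26b1, which encodes a retinoic acid hydroxylase and was named after its values were seen. It was at 1.29, -0.06, 0.41 and 0.67 on arrays 1 to 4 and did not pass (0.58 ± 0.56, adjusted p 0.0766). In this list 2 genes were called higher without array 1, without array 3 or with the processed signals, and without array 2 none was called in either direction.

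Of 29 further genes for organic ion and solute transport, 6 rose and 1 fell, with a median ratio of 0.05. Slc13a3, which encodes a dicarboxylate transporter of the Slc13a4 family, was at 0.42 ± 0.18 (0.62, 0.29, 0.25 and 0.53, adjusted p 0.0134). Slc6a13, which encodes the GABA and taurine transporter GAT2 of the meninges, was at 0.42 ± 0.09 (0.45, 0.45, 0.28 and 0.49, adjusted p 0.00356). The organic anion transporter gene Slco3a1 was at 0.36 ± 0.22 (adjusted p 0.0309) and the organic cation transporter gene Slc22a2 at 0.29 ± 0.09 (adjusted p 0.0123), or 0.11 under median centring (adjusted p 0.165). Slco2b1 and Abcc5 also rose and the carnitine and cation transporter gene Slc22a4 fell, though its ratio turned to 0.027 under median centring, and these 3 were named after their values were seen. Abcc5 did not pass with its probes averaged (0.084, adjusted p 0.250). The counts of genes that rose in this list were 3 without array 1 and 2 without array 2.

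Of 17 further IGF genes tested, 2 rose and 2 fell, with a median ratio of 0.02. Irs1, which encodes an adaptor of the insulin and IGF1 receptors, was at 0.41 ± 0.22 (0.65, 0.56, 0.23 and 0.22, adjusted p 0.0203), higher on arrays 1 and 2 as Igf2 was. With all its probes averaged Irs1 was at 0.18 and did not pass (adjusted p 0.0688). The binding protein gene Igfbp5 was at 0.21 ± 0.09 (adjusted p 0.0270). Igf2bp2, which encodes an RNA-binding protein of Igf2 transcripts, fell by 0.21 on the log2 scale (SD 0.13, adjusted p 0.0434), and so did the imprinted adaptor gene Grb10 (SD 0.13, adjusted p 0.0491). With the processed signals Igf2bp2 was at -0.56 and did not pass (adjusted p 0.0632). No call of this list was kept without array 1 or without array 2.

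Of 20 further prostaglandin genes tested, 2 rose and 2 fell, with a median ratio of 0.01. Without array 2 none of them was called in either direction, and without array 1 or array 3 none was called higher. The reductase genes Ptgr1 (0.20 ± 0.06, adjusted p 0.0230) and Cbr1 (0.15 ± 0.02, adjusted p 0.0422) rose. Ptges3, which encodes a co-chaperone with prostaglandin E synthase activity, fell by 0.26 on the log2 scale (SD 0.04, adjusted p 0.00987), with 0.17 under median centring. The receptor gene Ptger3 fell by 0.23 (SD 0.09, adjusted p 0.0224). With all probes of a gene averaged, neither passed, at -0.064 for Ptges3 (adjusted p 0.292) and -0.13 for Ptger3 (adjusted p 0.0812), and Ptgr1 was at 0.016 under median centring (adjusted p 0.791). Ptgis, which encodes prostacyclin synthase and was named after its values were seen, had ratios of 0.30, 0.27, 0.23 and 1.06 and did not pass (0.46 ± 0.40, adjusted p 0.0582), but it passed without array 4 (0.26, adjusted p 0.0255). Of 7 genes of the aryl hydrocarbon receptor list, only Arnt2, which encodes a dimerisation partner, rose (0.20 ± 0.05, adjusted p 0.0217). The Arnt2 call was lost without array 1 (adjusted p 0.0622), array 2 (0.0949) or array 3 (0.0916), and with the processed signals (0.0526).

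**Figure D3:**
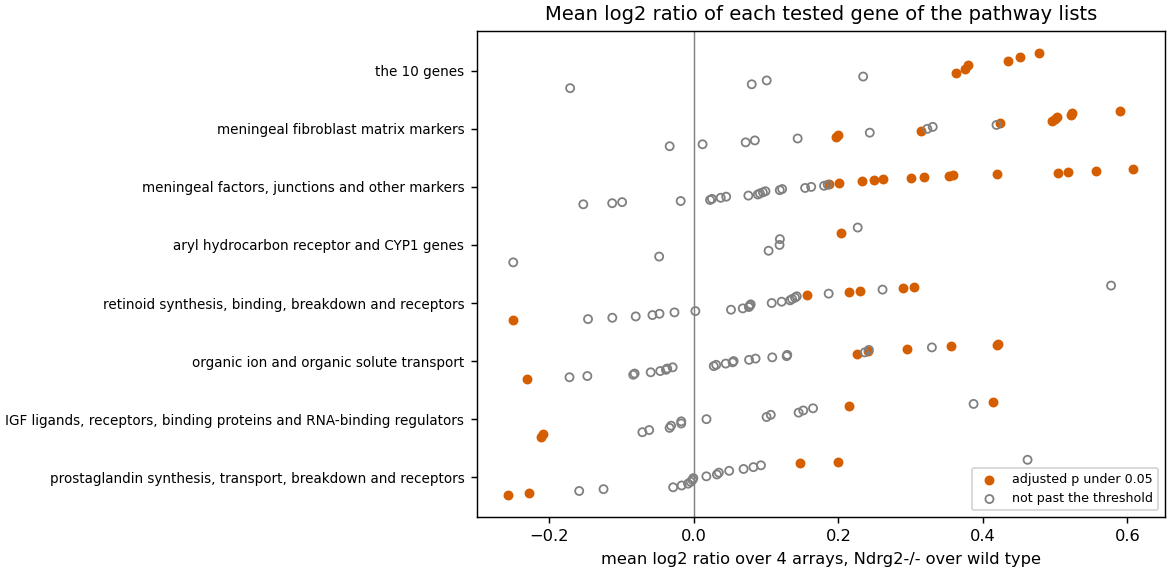
Mean log2 ratio over 4 arrays (Ndrg2-/- over wild type) of every tested gene of the pathway lists, 1 row per list and 1 point per gene, filled where limma's adjusted p was under 0.05. The 10 genes and the meningeal lists lie mostly to the right of 0, while the prostaglandin and IGF lists centre near it, at medians of 0.01 and 0.02.

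Other markers of meningeal fibroblasts were counted in 2 lists, and their part in the values of the 10 genes was not tested. Of 33 transcription factor, junction and signal genes, 14 rose, none fell and 19 did not pass, with a median of 0.16 and array medians of 0.19, 0.17, 0.09 and 0.29. Among them were the growth factor gene Bmp6 (0.61 ± 0.08, adjusted p 0.000754), the connexin gene Gjb2 (0.56 ± 0.10, adjusted p 0.00103) and the forkhead gene Foxc2 (0.52 ± 0.25, adjusted p 0.0141). Slc7a11, which encodes the cystine exchanger, was at 0.50 ± 0.06 (adjusted p 0.000878). Slc6a13, counted above with the transport genes, is also 1 of these 14, and it is among 3 genes that this list shares with other lists. Of 19 matrix genes, 10 rose, none fell and 9 did not pass, with a median of 0.32 and array medians of 0.28, 0.27, 0.09 and 0.58, led by Lum (0.59 ± 0.11, adjusted p 0.00112). Mgp, Col1a1 and Dcn were at 0.52 ± 0.41, 0.52 ± 0.29 and 0.50 ± 0.26 (adjusted p 0.0446, 0.0201 and 0.0173). The summed level of the matrix list was 20516 to 31050 in Ndrg2-/- samples, against 16428 to 25443 in wild type samples, in linear intensity units. These ranges overlapped, but within arrays the Ndrg2-/- sum was the higher on every array. Called genes numbered 5 to 10 of the 33 and 3 to 9 of the 19 with 1 array left out, 2 and 1 without the pairing, and 10 and 4 with the processed signals.

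Markers of other cell types that express some of the 10 genes were looked at in the same way, and their part was not tested. Of 18 choroid plexus markers 12 were tested, and the claudin gene Cldn2, the factor gene Otx2 and 4 others were not above background. Only Kcnj13, which encodes a potassium channel, rose (0.38 ± 0.22, adjusted p 0.0256), with ratios of 0.52, 0.24, 0.14 and 0.61, but not with its probes averaged (0.27, adjusted p 0.0974) or without array 1, 2 or 4. Ttr, which encodes the thyroxine and retinol carrier transthyretin, had ratios of 0.68, 0.23, 0.36 and -0.22 (adjusted p 0.197), and without array 4 it passed (0.42, adjusted p 0.0411). The median of the list was 0.04, and its summed level was 19224 to 20798 in Ndrg2-/- samples, against 18177 to 22411 in wild type samples. Within arrays the Ndrg2-/- sum was the lower on arrays 1 to 3 and the higher on array 4, the same directions as the level of Slc22a8. Of 15 oligodendrocyte markers, Mbp rose (0.77 ± 0.11, adjusted p 0.000754) and Ermn fell by 0.29 on the log2 scale (SD 0.07, adjusted p 0.00952), with 0.29 above 0 under median centring, and the median was 0.01. With all its probes averaged Ermn was at -0.052 and did not pass (adjusted p 0.497). The summed level of this list was 161279 to 162898 in Ndrg2-/- samples, against 159553 to 203893 in wild type samples, and the value of 203893 was that of array 3. The array medians of the list were 0.04, 0.04, -0.22 and 0.12. Array 3 was also where the Ptgds ratio was lowest (0.14) and its wild type level highest (17.02).

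Of 12 markers of perivascular macrophages and microglia tested, 7 rose, none fell and 5 did not pass, with a median of 0.23. The array medians were 0.18, 0.11, 0.24 and 0.18, highest on array 3, where the median of the 10 genes was lowest. The 4 largest were Cbr2 (0.36 ± 0.08, adjusted p 0.00478), the chemokine gene Pf4 (0.35 ± 0.11, adjusted p 0.00832), the mannose receptor gene Mrc1 (0.30 ± 0.13, adjusted p 0.0179) and F13a1 (0.27 ± 0.19, adjusted p 0.0468), all markers of macrophages at vessels and in the meninges. Cd163 was not above background. The summed level was 39785 to 46537 in Ndrg2-/- samples, against 37366 to 43209 in wild type samples. Within arrays the Ndrg2-/- sum was the higher on all but array 2. The count of 7 was 2 to 4 with 1 array left out.

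In the remaining lists the share called higher was 12.5% for astrocyte, 13.3% for endothelial, 14.3% for neuronal and 25% for ependymal markers. It was 6.67% for mural and 0% for blood markers, against 9.12% of all genes tested. These shares rest on 8 to 16 genes per list. Of 16 astrocyte markers 2 rose (Aldoc and Atp1b2), with a median of 0.14 and summed levels of 260111 to 274069 in Ndrg2-/- samples, against 226816 to 245809 in wild type samples. Aldoc, a bright gene, did not pass with a loess span of 0.1 (0.097, adjusted p 0.138) or with the processed signals (0.063, adjusted p 0.341). Of 15 endothelial markers 2 rose, the glucose transporter gene Slc2a1 (0.50 ± 0.34, adjusted p 0.0324) and Pecam1, with a median of 0.03 and summed levels of 40733 to 48704 in Ndrg2-/- samples, against 38490 to 42935 in wild type samples. The endothelial sum was the higher in the Ndrg2-/- sample on all but array 2. Slc2a1 did not pass with the processed signals (adjusted p 0.0776), with an offset of 16 (0.0546) or without array 1, 3 or 4. Pecam1 did not pass without array 1, 2 or 3. Of 15 mural markers only Notch3 rose (0.17 ± 0.08, adjusted p 0.0428), with a median of 0.12 and summed levels of 18843 to 31978 in Ndrg2-/- samples, against 17608 to 25508 in wild type samples. The mural sum was the higher in the Ndrg2-/- sample of every array. The array medians of the mural list were 0.09, 0.01, -0.02 and 0.29. On array 4 the smooth muscle genes Acta2, Cnn1, Tagln, Myl9 and Myh11, named after their values were seen, had ratios of 1.51, 1.78, 1.2, 1.14 and 0.74, against -0.14 to 0.28 on arrays 1 to 3. None of these 5 passed, and the part of these cells in the higher ratios of the 10 genes on array 4 was not tested. The calls of Notch3 and of the astrocyte gene Atp1b2 were lost with any 1 array left out. Of 8 ependymal markers 2 rose (Rarres2 and Hdc), with a median of 0.03, and both calls were lost with any 1 array left out. Of 14 neuronal markers Snap25 and Rbfox3 rose, with a median of 0.06. With the processed signals neither passed, Snap25 did not pass with a loess span of 0.1 (0.11, adjusted p 0.121), and Rbfox3 did not pass with its probes averaged (0.066, adjusted p 0.296). Of 8 blood markers none rose and S100a9 fell by 0.56 on the log2 scale (SD 0.19, adjusted p 0.00543), with a median of -0.08.

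**Figure D4:**
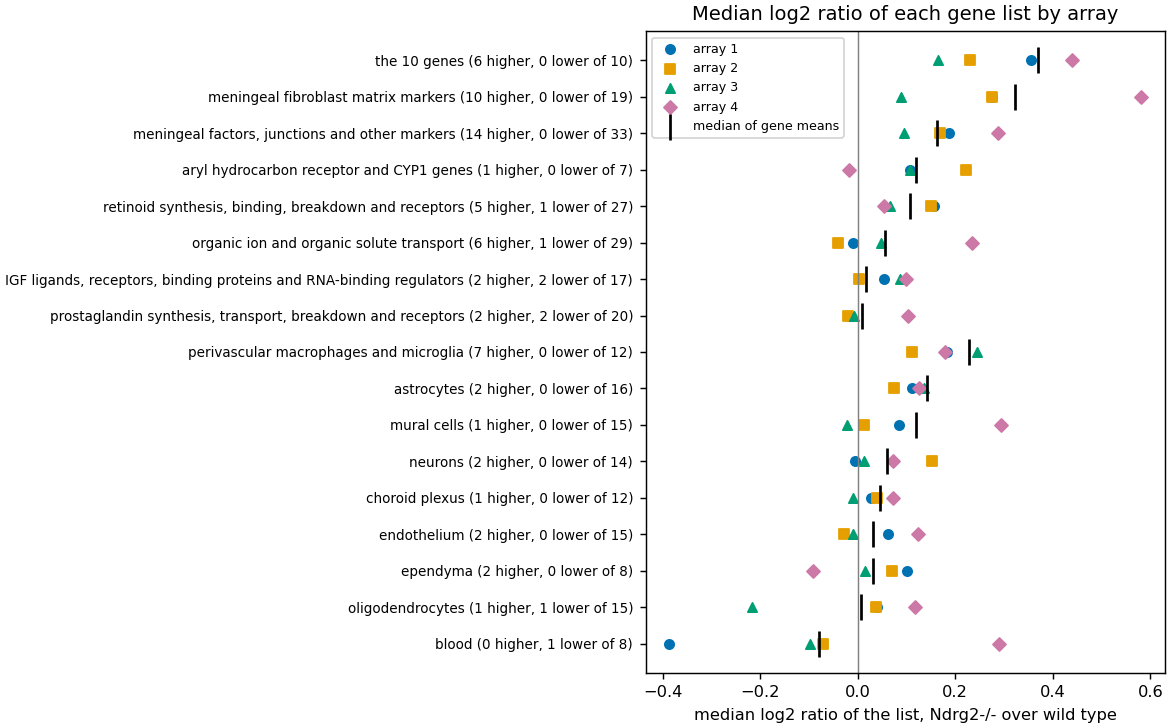
Median log2 ratio (Ndrg2-/- over wild type) of each gene list on arrays 1 to 4, with a black tick for the median of the gene means and the number of genes called in each direction beside the name. The 10 genes and both meningeal lists have their lowest median on array 3 and their highest on array 4. The mural, oligodendrocyte and choroid plexus lists have the same order at these 2 ends, so it is not particular to the meningeal lists. The choroid plexus list stays near 0.

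Under the other processing settings the 6 called genes kept a ratio above 0. Median centring in place of loess put the median of all genes at 0.28 and called 10643 genes higher and 2326 lower, where the setting used throughout called 1437 and 920. It gave larger ratios throughout the 6, from 0.44 for Igf2 to 1.1 for Ptgds, and also passed Igfbp2 (0.47) and Slc13a4 (0.60). These ratios are not relative to the median of all genes, which moved from 0.01 to 0.28. That median moved by more than Igf2 (0.38 to 0.44) and Cyp1b1 (0.48 to 0.56) did, and by less than the other called genes did. Under median centring Slc47a1 stood at -0.24.

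**Figure D5:**
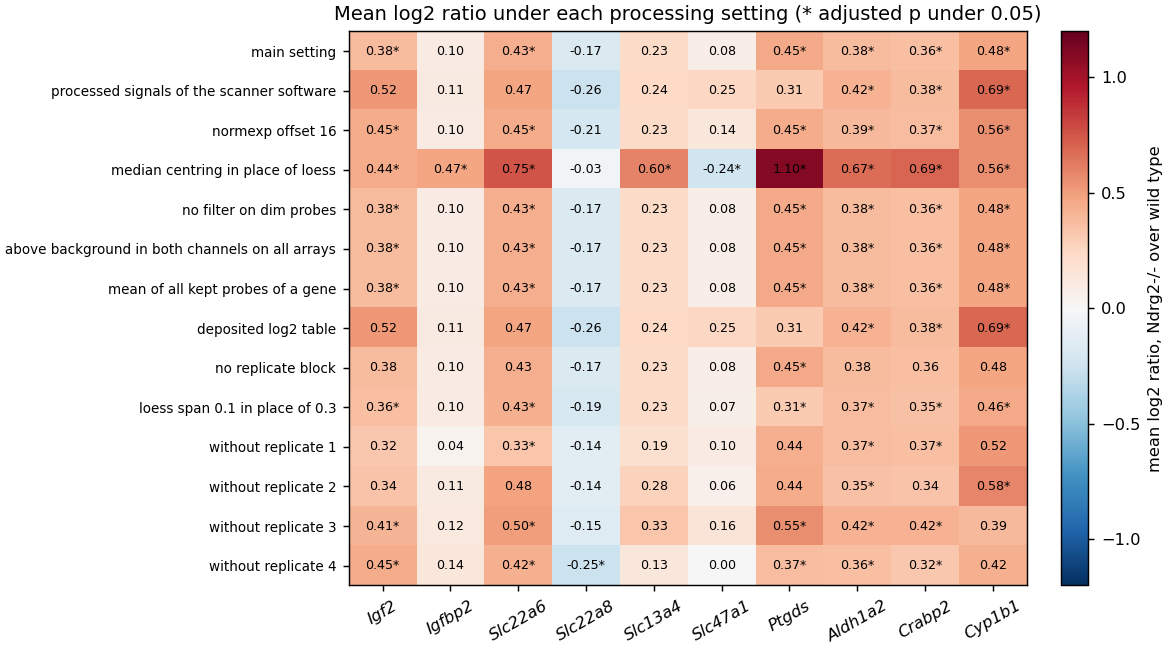
Mean log2 ratio (Ndrg2-/- over wild type) of the 10 genes, in columns, under each processing setting, in rows, coloured by value and marked with an asterisk where limma's adjusted p was under 0.05. Aldh1a2 has an asterisk in every row but that without the replicate block, and Slc22a8 is below 0 in every row.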

How the data were processed

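Per the labels' protocols, 200 ng of cortical RNA per sample was amplified and dyed. The authors read the scans with Agilent's Feature Extraction software; the file headers name its version as 11.0.1.1, whereas 10.7.3.1 stands in the submitters' processing notes. In the deposited scanner output, the raw intensity is the median pixel signal of a spot, and the processed intensity is, per the file headers, background-subtracted and dye-normalized. Over all spots, the deposited log10 ratio column correlated with the log ratio of red over green processed signal at 0.960, 0.999, 0.981 and 0.999 on arrays 1 to 4. The 2 are therefore close but not identical. The authors' deposited log2 values equal the log2 ratio of red over green processed signal, with column medians of 0.04, 0.03, -0.04 and -0.04, so their direction and scale are known; any further centring was not stated.

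Raw intensities were corrected by normexp with an offset of 50 and normalized by loess with a span of 0.3, with 1377 control spots at weight 0 (R 4.3.3, limma 3.58.1). Outlier spots (802) were left out and spots of a probe averaged. Probes (27661 of 39429) were kept where the scanner's well-above-background flag was set on every array in 1 channel or both. Symbols came from matching transcript accessions to a RefSeq table of GRCm38.p6 (27427 probes matched), and a gene was given by its brightest probe. The array design is annotated on mm9, so no gene coordinates are given. Levels per channel were taken after Aquantile.

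An intercept-only limma model was fitted to all kept probes, with Benjamini-Hochberg adjustment over all of them, and called 2357 of 15757 genes (15.0%). Samples of 1 replicate number share an array: over all genes, deviations from the group means correlated between them at 0.37 to 0.55, so the within-array ratio is the paired design. The exact sign-flip test used 4 arrays. The members and lists were chosen with earlier results of these data known. All members are named. From each list the called genes of largest ratio, at most 4, are named (at most 2 uncalled ones in a list without calls), with the 5 genes nearest by distance. The pipeline was tested on simulated data. The check on false calls there left out the brightest probes, a class in which the level of Ptgds lies. Of the retinoid list, 1 called gene is not reported here.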

Additional observations from a re-analysis of the deposited data

Results flagged for a closer look

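In 4 of 69 sets of 4 array values, 1 array stood apart by Dixon's criterion, each time array 4, and chance flags about 1 in 20 sets. Genes named after their values were seen, such as Ptgis, were not among these sets. The Slc22a8 ratio was 0.077 on array 4, against -0.26, -0.27 and -0.23 on arrays 1 to 3. The median of the prostaglandin list was 0.10 on array 4, against -0.02, -0.02 and -0.01 on the others. The matrix inhibitor gene Mgp had a ratio of 1.13 on array 4, against 0.28, 0.30 and 0.39. The astrocyte gene Atp1b2 had 0.24 on array 4, against 0.18, 0.18 and 0.17.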

How the results depend on the processing

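In the counts below, the pathway lists include both meningeal fibroblast lists, and the marker lists cover the other cell types. Removing the filter on dim probes, requiring both channels above background, averaging probes, a normexp offset of 16, and a loess span of 0.1 (chosen after seeing the data) changed no member's call, although the offset of 16 left 10 marker list genes called higher, against 18. The scanner software's processed signals and the deposited log2 table gave identical values: Igf2 0.52, Slc22a6 0.47 and Ptgds 0.31 no longer passed (adjusted p 0.0517, 0.0533 and 0.0863), and 3 members, 22 pathway list genes and 7 marker list genes were called higher, with 779 genes higher and 550 lower in all. Median centring passed Igfbp2 (0.47) and Slc13a4 (0.60), turned Slc47a1 to -0.24 (1 member called lower), Ermn to 0.29, Ptges3 to 0.17, Rbp4 to 0.15 and Slc22a4 to 0.027, and called 10643 genes higher and 2326 lower, 108 and 15 in the pathway lists, and 87 and 13 in the marker lists. Without the replicate block, that is without the pairing of samples on an array, the ratios of Igf2 0.38, Slc22a6 0.43, Aldh1a2 0.38, Crabp2 0.36 and Cyp1b1 0.48 did not pass, leaving 1 member called higher, 453 genes higher and 218 lower, 4 and 3 in the pathway lists and 2 and 0 in the marker lists. The cause of these changes was not tested.

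With 1 array left out in turn, the ratios ranged over 0.32 to 0.45 for Igf2, 0.33 to 0.50 for Slc22a6, -0.25 to -0.14 for Slc22a8, 0.37 to 0.55 for Ptgds, 0.32 to 0.42 for Crabp2 and 0.39 to 0.58 for Cyp1b1. The members called were 2 to 5 higher and 0 to 1 lower. Over all genes 321 to 956 were called higher and 131 to 588 lower, in the pathway lists 10 to 29 and 0 to 4, and in the marker lists 4 to 10 and 1 to 2, where all 4 arrays gave 39 and 6 and 18 and 2. The numbers without arrays 1, 2, 3 and 4 were 3, 2, 5 and 5 members called higher. Slc47a1, with 93.6% of genes brighter, is the member nearest to background.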
